A study of Mus musculus with 15 samples.

Results

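The 9 genes described here are Mag, Mbp, Mog, Mobp, Cnp, Mal, Olig1, Olig2 and Sox10, genes of myelin and of the oligodendrocyte lineage. They were taken by symbol from a count table of 35976 genes, and all 9 were found. Nuclear RNA had been sequenced from the ventral tegmental area of male mice, 8 to 12 weeks old, heterozygous for the DAT-Cre allele B6.SJL-Slc6a3tm1.1(cre)Bkmm/J, which drives Cre recombinase from the dopamine transporter gene. All mice received AAV5-DIO-KASH-HA, a virus whose HA-tagged nuclear envelope protein is made only where Cre is present, 14 days before behaviour. Nuclei with the HA tag are called dopaminergic here and nuclei without it non-dopaminergic. Each sample pooled punches from 2 mice.

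Dopaminergic nuclei were collected after 7 days of lever training for food (food-trained, n = 4 samples), after cocaine self-administration in daily 1-hour sessions, with 5 days of acquisition at 0.3 mg/kg per infusion and 10 days of maintenance at 1.0 mg/kg per infusion (maintenance, n = 3), and after 21 further days of forced abstinence in the home cage (abstinence, n = 4). Non-dopaminergic nuclei came from food-trained mice (n = 4), so no member has a non-dopaminergic value at the other stages. Every cocaine group had also been food-trained. Library totals ran from 25813697 to 59046618 counts.

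Oligodendrocytes wrap axons of the central nervous system in myelin, a compact stack of membrane rich in lipid and in a few very abundant proteins. The basic helix-loop-helix factors Olig1 and Olig2 and the HMG-box factor Sox10 specify the lineage and switch on the myelin genes, and Sox10 binds myelin gene regulatory DNA directly. Neurons are not known to make compact myelin, and in sorted neuronal nuclei these genes are commonly read as a measure of glial material carried along.

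The members have different parts in the sheath. Mbp encodes myelin basic protein, which holds the inner faces of the membrane together, and its locus also makes Golli transcripts, found in neurons and immune cells, which the gene-level counts do not separate. Mobp encodes a further basic protein of compact myelin, and Mal a proteolipid of myelin membrane rafts. Mag is the adhesion protein of the membrane facing the axon, Mog an immunoglobulin-like protein of the outermost surface, and Cnp an enzyme and cytoskeletal protein of the uncompacted channels.

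In build GRCm38, Mag lies on chr7:30899175-30914922, Mog on chr17:37010740-37023398, Mobp on chr9:120149742-120181488, Cnp on chr11:100574909-100591875, Mal on chr2:127633226-127656695 and Sox10 on chr15:79154913-79164490. Olig2, on chr16:91225550-91228677, and Olig1, on chr16:91269769-91271939, are neighbours on the same strand, 41.1 kb apart. Olig1 is the only member whose longest annotated transcript has 1 exon, and with 61.1% GC it is, beside Sox10 at 61.8%, at the upper end of the members, while Mal has the lowest GC content at 48.9%.

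Since Sox10 is itself a member, the promoter windows of the other members were searched for ACAAAG, a core motif of SOX factors, on both strands (as ACAAAG or CTTTGT). RefSeq windows of GRCm38.p6, from 250 bases before to 50 bases after an annotated start, were matched for 6 members. For Cnp that start is not the gene start given above. Its window opens at 100574689, less than 250 bases before 100574909. The motif was in 3 of these 6, and in 18.7% of all 32817 windows. The 3 windows with a match are shown 5′ to 3′ on the gene's strand, with each match in capitals: Mobp at chr9:120149492-120149791 on the plus strand, Mag at chr7:30914873-30915172 on the minus strand and Cnp at chr11:100574689-100574988 on the plus strand.
Mobp: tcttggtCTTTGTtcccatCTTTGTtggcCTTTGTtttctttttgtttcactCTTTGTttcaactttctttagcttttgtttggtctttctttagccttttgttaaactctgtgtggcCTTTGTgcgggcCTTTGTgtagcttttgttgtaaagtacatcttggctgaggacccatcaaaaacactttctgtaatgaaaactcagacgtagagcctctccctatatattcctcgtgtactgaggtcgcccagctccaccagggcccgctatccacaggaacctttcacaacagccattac
Mag: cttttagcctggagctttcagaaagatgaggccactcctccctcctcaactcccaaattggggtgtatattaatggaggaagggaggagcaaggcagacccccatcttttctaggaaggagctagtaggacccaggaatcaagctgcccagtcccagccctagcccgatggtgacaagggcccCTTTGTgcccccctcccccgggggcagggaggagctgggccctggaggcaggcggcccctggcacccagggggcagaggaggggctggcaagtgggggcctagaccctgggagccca
Cnp: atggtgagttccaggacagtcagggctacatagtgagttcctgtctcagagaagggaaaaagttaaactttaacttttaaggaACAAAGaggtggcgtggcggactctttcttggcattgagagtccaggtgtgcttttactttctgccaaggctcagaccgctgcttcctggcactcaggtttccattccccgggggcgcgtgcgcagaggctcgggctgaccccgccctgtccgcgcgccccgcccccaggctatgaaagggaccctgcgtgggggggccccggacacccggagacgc

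The Mobp window held 6 matches, all as CTTTGT and all upstream of the start, where 5 or more were found in 3 of the 32817 windows. The Mag and Cnp windows held 1 match each, and the windows of Mog, Mal and Olig2 held none of these letters. A match describes the sequence only.

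**Figure D1:**
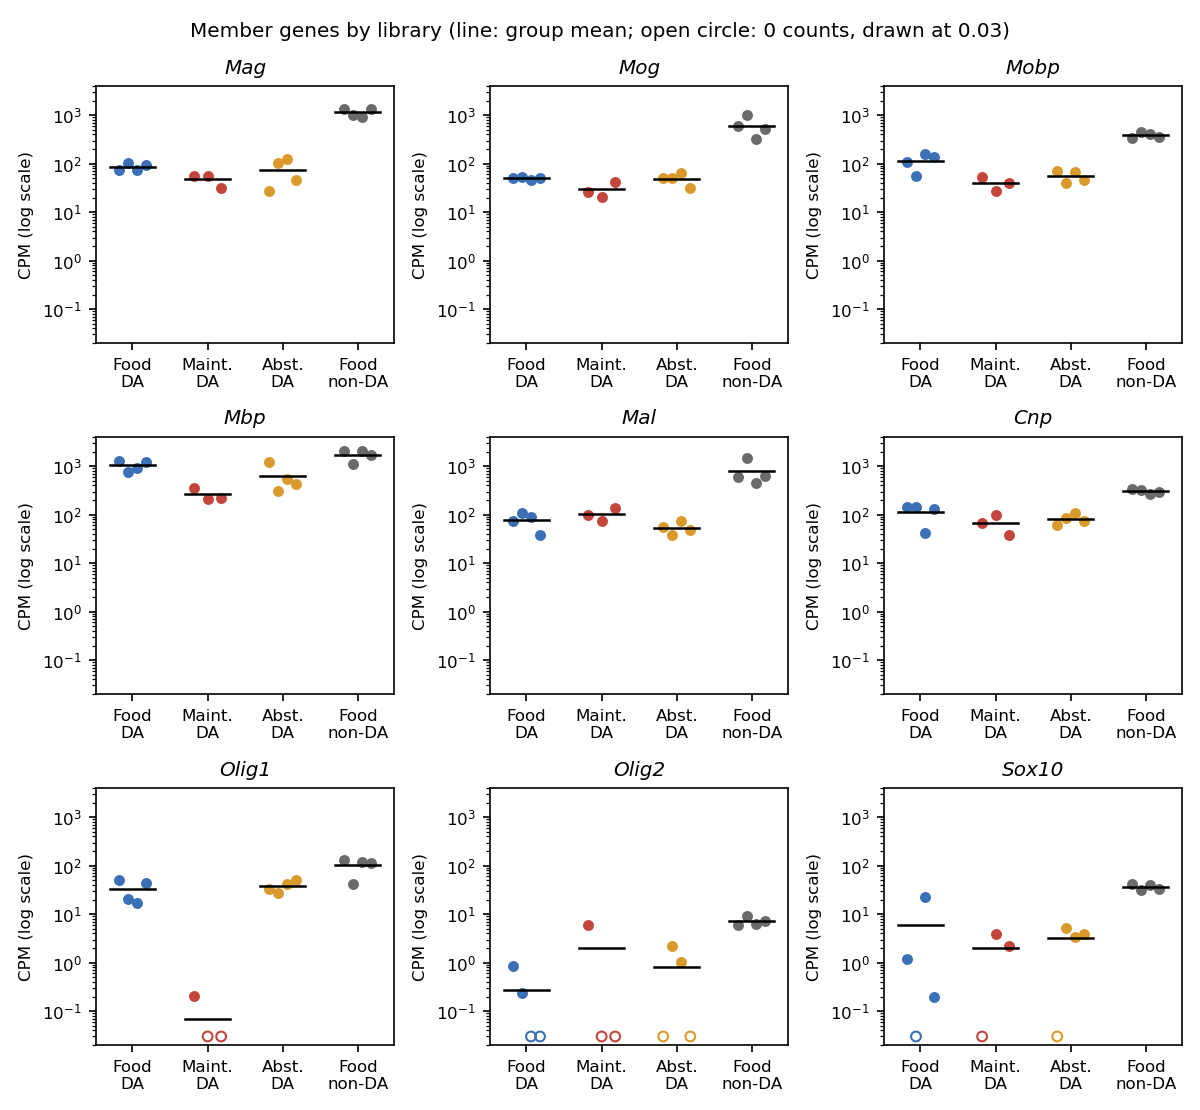
CPM (counts scaled to a common library size, log axis) of each member in all 15 libraries, by group: dopaminergic (DA) nuclei after food training, maintenance and abstinence, and non-dopaminergic nuclei after food training. Points are libraries, lines are group means and open circles are libraries with 0 counts; Mag, Mog and Mal stand well below the non-dopaminergic libraries at all 3 stages, and Olig1 falls to 0 or near 0 at maintenance.

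The first comparison asked how far the sort for the HA tag separated oligodendrocyte RNA from dopaminergic nuclei. In food-trained mice 6 of the 9 members were lower in dopaminergic than in non-dopaminergic nuclei (edgeR's quasi-likelihood test, two-sided, Benjamini-Hochberg adjusted p under 0.05 over 19786 genes), and none was higher. All 9 members passed the filter on low counts in this fit and in the fit of the 11 dopaminergic libraries. Here Olig2 and Sox10 had 10 or more counts in only 1 and 2 of the 4 dopaminergic libraries, so they passed it through the non-dopaminergic libraries, where they are high. Over all genes 12.8% passed in either direction and 9.17% passed as lower. The members' median log2 ratio (the fitted log2 fold change) was -2.67, against -0.21 for all genes tested. In 7 of 9 members every dopaminergic library was below every non-dopaminergic one, as in 19.1% of all genes. Over the 7 members other than Olig2 and Sox10, 6 passed, 5 did not overlap and the median was -1.79. Fewer oligodendrocyte nuclei and less RNA per nucleus cannot be told apart in such bulk samples.

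Among the surface proteins the separation was wide. Mag stood at 75.6, 102, 75.6 and 91.8 CPM in the 4 food-trained dopaminergic libraries and at 1357, 1007, 906 and 1325 CPM in the non-dopaminergic ones. The log2 ratio was -3.76 (SE 0.23, edgeR adjusted p = 0.000612), with no overlap. Mog was at 49.6, 52.3, 47.1 and 51.3 CPM against 593, 1018, 317 and 510 CPM, a log2 ratio of -3.62 (SE 0.35, edgeR adjusted p = 0.00145). The Mog level was the steadiest of the members among food-trained dopaminergic libraries, with a coefficient of variation of 4.56%, while it varied by 48.6% among the non-dopaminergic ones.

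Mal and Mobp, of compact myelin, were both lower. Mal stood at 74.0, 107, 89.9 and 37.9 CPM in dopaminergic and at 600, 1475, 450 and 632 CPM in non-dopaminergic libraries (log2 ratio -3.38, SE 0.46, edgeR adjusted p = 0.00626). Mobp stood at 106, 56.5, 159 and 135 CPM against 338, 451, 409 and 362 CPM (log2 ratio -1.79, SE 0.31, edgeR adjusted p = 0.0067). The groups did not overlap in either gene, and the difference between the 2 ratios was not tested.

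Mbp did not pass. It was at 1303, 775, 913 and 1243 CPM in dopaminergic and at 2050, 1090, 2093 and 1712 CPM in non-dopaminergic libraries, with a log2 ratio of -0.74 (SE 0.29, edgeR adjusted p = 0.147). The groups overlapped through non-dopaminergic replicate 2, which lay below 2 of the dopaminergic libraries. The DESeq2 Wald test gave Mbp a log2 ratio of -0.71 with an adjusted p of 0.0473.

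Cnp stood at 142, 146, 42.4 and 130 CPM in dopaminergic and at 340, 323, 263 and 296 CPM in non-dopaminergic nuclei (log2 ratio -1.43, SE 0.35, edgeR adjusted p = 0.028). The groups did not overlap, and dopaminergic replicate 3 was the lowest library. Without any single non-dopaminergic library, whichever of the 4 was left out, Cnp no longer passed (edgeR adjusted p 0.0562 to 0.0828).

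The transcription factors were less abundant and, in the dopaminergic libraries, more uneven. Olig1 stood at 50.3, 20.9, 16.7 and 43.7 CPM in dopaminergic and at 133, 42.1, 118 and 111 CPM in non-dopaminergic nuclei, with a log2 ratio of -1.64 (SE 0.46, edgeR adjusted p = 0.0484). Here too non-dopaminergic replicate 2 overlapped the dopaminergic range. The call was at the threshold and was lost when the replicate number entered the fit as a block (edgeR adjusted p = 0.0534), in the fit of all 15 libraries (0.0757), with upper quartile scaling (0.0536), with no filter on low counts (0.0543) and without any of dopaminergic replicates 2, 3 or 4 or non-dopaminergic replicates 1, 3 or 4 (0.0516 to 0.139).

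Olig2 had few reads throughout. It had 48, 8, 0 and 0 counts in the dopaminergic libraries, or 0.837, 0.232, 0 and 0 CPM, and stood at 6.0, 9.16, 6.28 and 7.36 CPM in the non-dopaminergic ones. The groups did not overlap, but the log2 ratio of -4.75 (SE 1.62) did not pass (edgeR adjusted p = 0.0999). It passed without dopaminergic replicate 1 (log2 ratio -6.52, edgeR adjusted p = 0.0351), by DESeq2 (adjusted p = 0.00405) and by limma-voom (adjusted p = 0.00159). The first of these follows from the choice, since replicate 1 held most of the dopaminergic Olig2 counts. In each of them Olig2 reached the fit through the non-dopaminergic libraries, where it is high. A count of 0 allows a level of up to 3 counts, or 0.11 CPM in dopaminergic replicate 3 and 0.0652 CPM in replicate 4.

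Sox10 was uneven among the dopaminergic libraries. It stood at 1.2, 0, 22.4 and 0.196 CPM in dopaminergic and at 42.3, 31.0, 40.6 and 33.5 CPM in non-dopaminergic nuclei. Dopaminergic replicate 3 came nearest to the non-dopaminergic range while the other 3 were near 0. The log2 ratio was -2.67 (SE 1.55, edgeR adjusted p = 0.348), and without dopaminergic replicate 3 it was -6.25 (edgeR adjusted p = 0.0119). The latter follows from leaving out the library with the high value. With all libraries kept, limma-voom with sample weights gave -6.50 (adjusted p = 0.00798) and the replicate block -5.98 (edgeR adjusted p = 0.143). The same library had the highest Mobp and the lowest Cnp and Olig1 of the 4, so it did not carry more of every member.

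Non-dopaminergic replicate 2 also stood apart from the other 3 libraries of its group. Its Mbp (1090 against 1712 to 2093 CPM), Olig1 (42.1 against 111 to 133 CPM) and Sox10 (31.0 against 33.5 to 42.3 CPM) were below theirs. Its Mal (1475 against 450 to 632 CPM), Mog (1018 against 317 to 593 CPM), Mobp (451 against 338 to 409 CPM) and Olig2 (9.16 against 6.0 to 7.36 CPM) were above, and Mag and Cnp lay within their range. Set against the GC content of the transcripts, log2 CPM had a slope of -0.0247 per percent GC in this library and of 0.0211 to 0.0325 in the other 3. The part of this slope in the members' levels was not tested. Leaving out this library together with dopaminergic replicate 3, a choice made after seeing the data, left the same 6 members past the threshold and added Sox10. This gain follows from the choice, since replicate 3 held the high Sox10 value of the dopaminergic group.

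The label calls the non-dopaminergic nuclei neurons. Their libraries held the glial genes at high levels, with Mag at 1149 ± 226 CPM (SD, n = 4), the astrocyte gene Gja1 at 884 ± 418 CPM and the microglial gene Ctss at 528 ± 392 CPM, beside neuronal Syt1 at 1111 ± 148 CPM. The sort took nuclei by the absence of HA and by DAPI, and by these markers the population held glia as well as neurons. In the dopaminergic nuclei Slc6a3 stood at 3010 ± 1031 CPM against 91.5 ± 18.9 CPM, and of 13 dopamine identity genes, all higher by sign, 12 passed the threshold. Over all genes 12.8% passed in either direction.

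**Figure D2:**
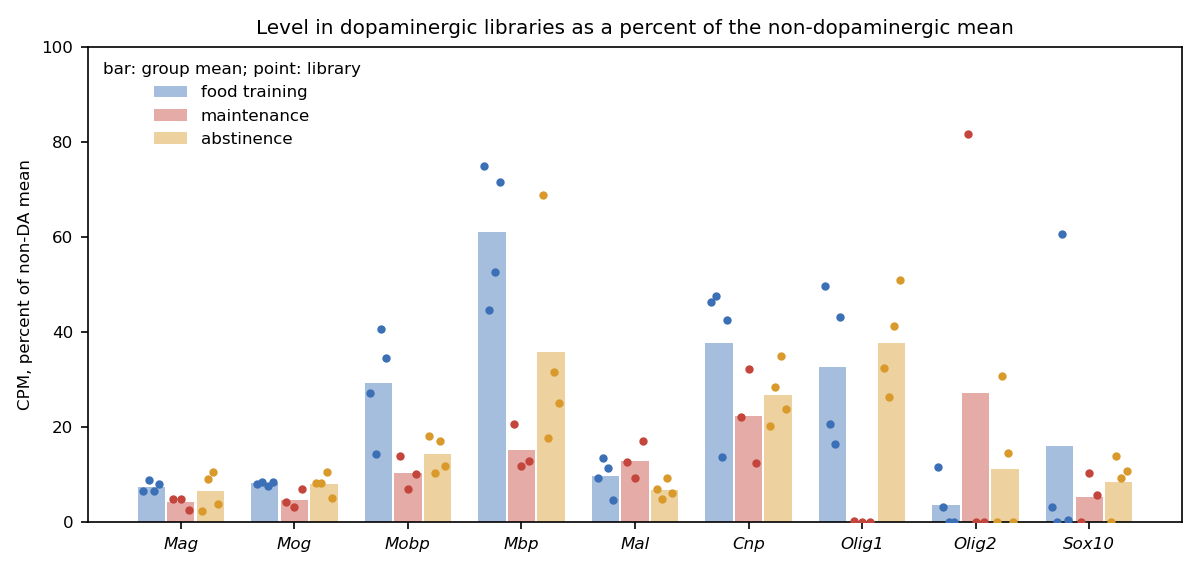
Level of each member in dopaminergic nuclei as a percent of its mean in the food-trained non-dopaminergic libraries. Bars are means over the libraries of a stage and points are libraries; in food-trained mice the values run from 3.71% for Olig2 to 61.0% for Mbp.

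Expressed as a share of the non-dopaminergic mean, the level left in food-trained dopaminergic nuclei differed widely from member to member. Olig2 was at 3.71%, Mag at 7.51%, Mog at 8.21%, Mal at 9.77%, Sox10 at 16.1%, Mobp at 29.3%, Olig1 at 32.6%, Cnp at 37.7% and Mbp at 61.0%. The Olig2 share rested on dopaminergic replicate 1 and was 1.07% without that library. With the libraries at 0 set to the floor of 3 counts each, it was at most 4.32% over all 4 and at most 1.88% without replicate 1. The Sox10 share rested on dopaminergic replicate 3, at 22.4 CPM against 0 to 1.2 CPM in the other 3. The median over the members, 16.1%, was the value of Sox10. This median fell to 9.23% without dopaminergic replicate 3 and rose to 20.4% to 21.5% without any of the other 3. For comparison, the median was 32.0% over 12 astrocyte genes, 29.5% over 12 microglia genes and 23.8% over 10 vascular genes.

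Median shares at maintenance and abstinence, against the same food-trained non-dopaminergic libraries, were 10.4% and 11.3%. Medians taken within single libraries overlapped between stages. They were 8.41% to 13.9% after food training, 6.94% to 12.6% at maintenance and 8.21% to 14.6% at abstinence. At maintenance the range ran from at most 0.122% for Olig1, with libraries at 0 set to 3 counts, to 27.3% for Olig2, and at abstinence from 6.52% for Mag to 37.8% for Olig1. Mag stayed low at each stage, at 7.51%, 4.19% and 6.52%, as did Mog, at 8.21%, 4.82% and 8.05%. The maintenance share of Olig2 came from replicate 1, which had 285 counts (5.88 CPM) while the other 2 libraries had none.

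**Figure D3:**
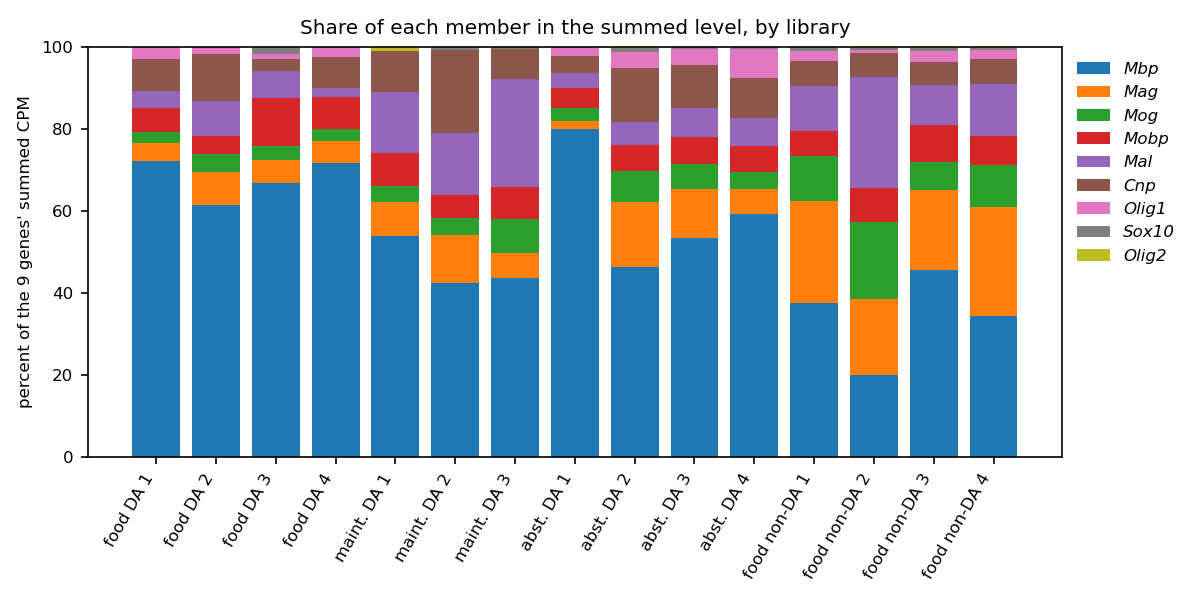
Share of each member in the summed CPM of the 9 genes, in percent, for each of the 15 libraries. Mbp makes up 61.5% to 72.3% of the sum in food-trained dopaminergic libraries and 20% to 45.5% in the non-dopaminergic ones.

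The mix of the members therefore differed between the populations. Their summed level was 1259 to 1803 CPM in food-trained dopaminergic and 4603 to 5460 CPM in non-dopaminergic libraries. Mbp made up 61.5% to 72.3% of the sum in the former and 20% to 45.5% in the latter, without overlap. Its share was 42.4% to 53.8% at maintenance, overlapping the non-dopaminergic range, and 46.3% to 80% at abstinence. The ratio of Mbp to Mag was 7.59 to 17.2 in food-trained dopaminergic, 3.64 to 7.24 in maintenance, 2.92 to 44.2 in abstinence and 1.08 to 2.31 in non-dopaminergic libraries, so each dopaminergic library was above each non-dopaminergic one. The ratio of Olig1 to Cnp, in contrast, was 0.143 to 0.393 in food-trained dopaminergic and 0.13 to 0.447 in non-dopaminergic libraries, with 0 to 0.00305 at maintenance and 0.308 to 0.708 at abstinence.

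Per length of the longest transcript, the order of the members changed with the population. By group means, Mag was highest in non-dopaminergic nuclei, at 472 CPM per kb, followed by Mbp (362), Mog (358), Mal (284), Mobp (119), Cnp (105), Olig1 (46.7), Sox10 (13.3) and Olig2 (2.84). By mean CPM, not divided by length, Mbp was the highest member in these nuclei (1736 against 1149 CPM for Mag). The top place of Mag thus rests on the 4797 bases taken for Mbp, against 2434 for Mag. The order per length was not that of each library: Mag was highest in 2 of the 4, Mbp in replicate 3 and Mog in replicate 2. The neighbours Mbp and Mog differed by less than their spread between libraries, with coefficients of variation of 26.7% and 48.6%. In food-trained dopaminergic nuclei Mbp was highest in each of the 4 libraries, with a mean of 221 CPM per kb. Cnp (39.7), Mag (35.5), Mobp (34.8), Mog (29.4) and Mal (27.8) followed close together, with coefficients of variation of 4.56% to 42.5%, and Olig1 (15.2), Sox10 (2.14) and Olig2 (0.106) were lowest.

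Other oligodendrocyte genes, in 5 lists of 48 genes without the members, passed the threshold as lower in dopaminergic nuclei in 20 cases (41.7%) and as higher in none. Over all genes 9.17% passed as lower. By sign alone 43 of the listed genes were lower and 5 higher, with a median log2 ratio of -2.58, against -0.21 for all genes tested. Those that passed were 5 of 7 sheath proteins, 5 of 10 lipid and metabolic enzymes, 8 of 12 genes of axon contact and glial junctions, 2 of 8 transcription factors and 0 of 11 precursor genes, of which 8 were lower by sign. Among them were Hapln2, a hyaluronan link protein of the node of Ranvier (log2 ratio -4.59), the fatty acid hydroxylase Fa2h (-3.91) and Myrf, a transcription factor of myelin genes (-5.16).

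**Figure D4:**
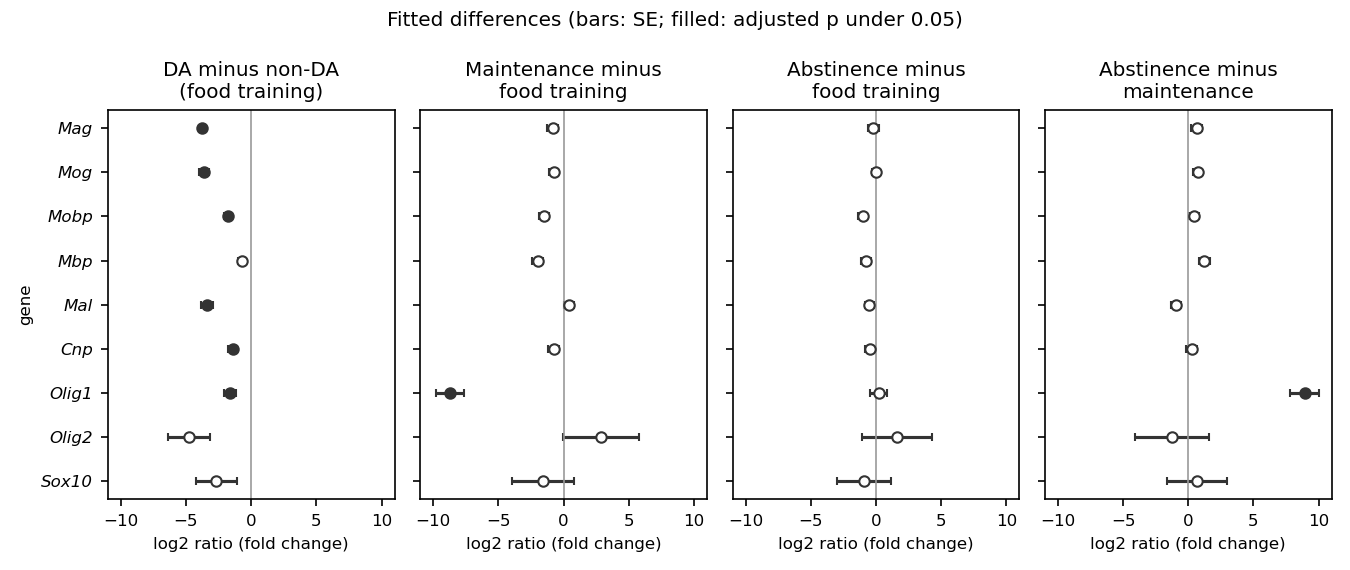
Fitted log2 ratio of each member in the 4 comparisons, with standard error bars. Filled points passed the threshold: 6 members between the populations, Olig1 alone at maintenance against food training and at abstinence against maintenance, and none at abstinence against food training.

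The stage comparisons asked whether the members differ in dopaminergic nuclei between food training, maintenance and abstinence. They are contrasts in a fit of the 11 dopaminergic libraries over 19060 genes, and both contrasts with food training use the same 4 food-trained libraries. At maintenance 1 of 9 members passed against food training, Olig1, which was lower, where 0.131% of all genes passed. At an unadjusted p under 0.05, 4 members were lower (Mbp, Mobp, Mog and Olig1), against 6.74% of all genes. In 5 members (Mag, Mbp, Mog, Mobp and Olig1) every maintenance library was below every food-trained one, as in 4.21% of all genes. The members' median log2 ratio was -0.84, against -0.01 for all genes.

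Olig1 had 10, 0 and 0 counts in the 3 maintenance libraries. Against the food-trained libraries at 50.3, 20.9, 16.7 and 43.7 CPM, the maintenance libraries were thus at 0.206, 0 and 0 CPM, with no overlap. With the libraries at 0 set to a floor of 3 counts each, the food-trained mean was at least 267-fold higher. The fitted log2 ratio of -8.72 (SE 1.09, edgeR adjusted p = 0.0103) depends on the prior count. The call held without any single food-trained or maintenance library. The log2 ratio was -13.48 without maintenance replicate 1, the only one of the 3 with Olig1 counts, and -8.93 to -8.17 without any of the other 6 of these libraries. The call was lost with limma-voom (log2 ratio -10.53, adjusted p = 0.0772) and in an edgeR fit of only these 2 stages (log2 ratio -8.75, adjusted p = 0.166).

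Mbp stood at 361, 207 and 224 CPM at maintenance, below each food-trained library (775 to 1303 CPM). The log2 ratio was -2.0 (SE 0.44, unadjusted p = 0.000461, edgeR adjusted p = 0.0999), so it did not pass over all genes, but it did with DESeq2 (adjusted p = 1.79e-05). Mobp, at 54.2, 27.8 and 39.9 CPM against 56.5 to 159 CPM, had a log2 ratio of -1.49 (SE 0.38, edgeR adjusted p = 0.168) and also passed with DESeq2 (adjusted p = 0.00568). Mog, at 25.6, 20.3 and 42.3 CPM, and Mag, at 56.6, 57.0 and 30.9 CPM, were below the food-trained range without passing either test (edgeR adjusted p 0.418 and 0.492).

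The other members overlapped between these stages. Cnp stood at 67.8, 98.9 and 38.4 CPM at maintenance (log2 ratio -0.76, edgeR adjusted p = 0.518). Mal, at 99.5, 73.7 and 135 CPM, had a log2 ratio of 0.42 (SE 0.36, edgeR adjusted p = 0.79). Olig2 and Sox10 had 0 counts in 2 and 1 of the 3 libraries, and their log2 ratios of 2.86 (SE 2.92) and -1.58 (SE 2.35) were not determined at these counts.

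The ratio of Mal to Mog, singled out after its values were seen, was 3.89, 3.62 and 3.19 at maintenance, 0.74 to 2.04 after food training, 0.755 to 1.6 after abstinence and 1.01 to 1.45 in non-dopaminergic nuclei. It was higher in the maintenance libraries than in any of the other 12.

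Of the 48 other oligodendrocyte genes, 0 passed at maintenance in either direction, where 0.131% of all genes did. Their median log2 ratio was -0.01, that of all genes tested. Whether they differ from the members was not tested. The list of 7 other sheath proteins had a median of 0.12, with 5 above and 2 below 0. The 8 other transcription factors had a median of -0.60, with 7 below and 1 above 0.

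The maintenance libraries also stood apart in GC slope. Their slopes were -0.0378, -0.0226 and -0.038 per percent GC, whereas the slope was -0.0166 to 0.0206 in the other 8 dopaminergic libraries, so slope and stage cannot be told apart among dopaminergic libraries. Non-dopaminergic replicate 2 was the only other library with a slope in this range. Against the mean of the other 3 non-dopaminergic libraries, that library had 0.349 times their Olig1, 0.558 times their Mbp and 2.63 times their Mal. Maintenance against food-trained means gave at most 0.00375 (with the floor), 0.249 and 1.33 times. For Mog the values were 2.15 and 0.587 times, for Mobp 1.22 and 0.356 times and for Cnp 1.08 and 0.593 times. These 3 members lay on opposite sides of 1, and the other 6 on the same side in both. Of the 6, the sides of Olig2 and Sox10 each rest on 1 library. Without maintenance replicate 1 the fitted log2 ratio of Olig2 turned from 2.86 to -6.56. Without food-trained dopaminergic replicate 3 that of Sox10 turned from -1.58 to 2.09. In a fit of all 15 libraries with a term for these 4 libraries, Olig1 had a log2 ratio of -7.10 (edgeR adjusted p = 0.116), Mal changed sign to -0.88, Mbp moved from -2.0 to -1.09 and Mog from -0.76 to -1.78. Among dopaminergic libraries this term coincides with maintenance, so its size came only from non-dopaminergic replicate 2 against the other 3 of its group. These shifts therefore follow that library's values given above and are not a separate adjustment for GC content. With the GC trend removed from each library, Olig1 was past the threshold at an edgeR adjusted p of 0.0148.

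At abstinence 0 of 9 members passed against food training by edgeR, where 0% of all genes did, and 0 of 9 members passed by DESeq2. At an unadjusted p under 0.05, 1 member was lower, against 1.07% of all genes, and no member was lower without overlap, against 0.955%. That member was Mobp, at 71.2, 40.8, 66.7 and 46.1 CPM against 106, 56.5, 159 and 135 CPM after food training (log2 ratio -1.02, SE 0.34, unadjusted p = 0.01, edgeR adjusted p = 0.999974). The members' median was -0.49, against 0.04 for all genes and 0.13 for the 48 other oligodendrocyte genes.

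The coefficient of variation was higher among abstinence than among food-trained libraries in 3 members (Mbp, Mag and Mog) and lower in the other 6, with no test of the spread. Among the 6, the food-trained spread of Cnp rested largely on replicate 3 (42.4 against 130 to 146 CPM). The same library set that of Sox10 (22.4 against 0 to 1.2 CPM). Mbp was at 1195, 307, 550 and 436 CPM, a coefficient of variation of 63.4% against 24.1% after food training, and replicate 1 lay within the food-trained range while the other 3 were below it. Without replicate 1 the coefficient of variation of Mbp was 28.3%, close to the food-trained value. Mag was at 27.0, 105, 122 and 45.7 CPM, with replicate 1 the lowest, a coefficient of variation of 60.9% against 15.1%, and 44% without replicate 1. The library with the highest Mbp of its group thus had the lowest Mag, and its ratio of Mbp to Mag was 44.2. Olig1 was at 32.8, 26.7, 41.7 and 51.6 CPM, overlapping the food-trained libraries (log2 ratio 0.22, SE 0.66).

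Against maintenance, 1 member passed at abstinence, Olig1, which was higher (log2 ratio 8.93, SE 1.10, edgeR adjusted p = 0.00955), where 0.178% of all genes passed. Its abstinence mean was at least 310-fold the maintenance mean with the same floor. At an unadjusted p under 0.05, 3 members were higher (Mbp, Mog and Olig1), against 7.33% of all genes as higher, and Mal was lower, against 2.59% of all genes. Olig1 was the only member higher without overlap, against 7.56% of all genes. Mal, at 55.1, 38.1, 73.6 and 49.4 CPM, lay below each maintenance library, as did 4.57% of all genes (log2 ratio -0.93, SE 0.36, edgeR adjusted p = 0.45). With limma-voom Olig1 had a log2 ratio of 10.55 (adjusted p = 0.0503), and with the term for the 4 libraries of low GC slope one of 7.32 (edgeR adjusted p = 0.0827), so the call was lost while the direction was kept.

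Across the 11 dopaminergic libraries the members' summed level was set against 4 other lists, on the log2 scale. Mbp made up 42.4% to 80% of this sum, so the values follow Mbp more than any other member. Pearson's r was -0.05 with oligodendrocyte precursor genes, 0.16 with astrocyte genes, -0.05 with microglia genes and 0.07 with dopamine identity genes (permutation p 0.649 to 0.891, each 0.891 after adjustment over the 4 relations). Spearman's rho was -0.14, 0.15, -0.15 and -0.15 (permutation p 0.655 to 0.695, each 0.695 adjusted). Without maintenance replicates 2 and 3, the libraries farthest from the median, r was -0.26, 0.30, -0.24 and 0.31. Without all 3 maintenance libraries, whose member sums were the lowest as a group, r was -0.14, 0.72, -0.05 and 0.35 (permutation p adjusted over the 4 relations 0.916, 0.177, 0.916 and 0.822). No relation passed in either set, the value for astrocyte genes depended on the maintenance libraries, and a stage has too few libraries for a value of its own.

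The summed levels of the other cell types overlapped between stages. The 12 astrocyte genes summed to 975 to 1275 CPM after food training, 1047 to 1378 CPM at maintenance and 820 to 1126 CPM at abstinence, and the 12 microglia genes to 628 to 1315, 653 to 1317 and 753 to 1288 CPM. The 9 members summed to 489 to 671 CPM at maintenance, below each food-trained library, and to 662 to 1493 CPM at abstinence. Of the 12 astrocyte and 12 microglia genes, 0 passed in the 3 stage comparisons, a count read against 0.131%, 0% and 0.178% of all genes.

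The genes most like the members were found by Pearson's r with the mean of their standardized log2 CPM, as a description. Over all 15 libraries, which mainly separate the populations, these were Pllp (0.971), Ttyh2 (0.96), Tmem88b (0.956), Hapln2 (0.955), F3 (0.954), Cd33 (0.953), Myh6 (0.942) and Tmem252 (0.941). Pllp, the myelin protein plasmolipin, and Hapln2 are on the oligodendrocyte lists. Over the 11 dopaminergic libraries alone they were Lrrc20 (0.904), Zfp428 (0.902), Git2 (0.899), Tmem253 (0.893), Nrxn2 (0.891), Aatk (0.888), Wdr7 (0.885) and Ipo13 (0.884), and none of the 20 nearest was on an oligodendrocyte list. In these 11 libraries 6 members had r of 0.525 to 0.759 with their common mean, while r was 0.361 for Olig2, 0.054 for Sox10 and -0.16 for Mal, so the genes named are not like every member. Each member is itself part of that mean, which raises its r. Genes of a library share its depth and GC slope, which differ between libraries.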

How the data were processed

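The authors deposited whole-number counts per gene for 15 nuclear RNA-seq libraries. Per the submitters' processing notes, Trim Galore 0.6.7, cutadapt 1.18, STAR 2.7.10a, StringTie 2.1.5 and DESeq2 1.38.3 were used with builds mm10 and GRCm38. The annotation, the use of strand and the counting options are not given in the sources used here, so overlapping genes are uncertain. A second deposited table, named as normalized, differed from the first in 0 cells over its 10 columns and was not used further; food-trained dopaminergic replicate 3 is the only dopaminergic library not among them. The labels name a low-input cDNA kit and no molecular identifiers, so that floors cover counting error only.

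The main analysis used edgeR 4.0.16 in R 4.3.3 (filterByExpr, TMM scaling, two-sided quasi-likelihood F-test, Benjamini-Hochberg adjustment over all genes tested, threshold 0.05), and in Python 3.11.15 with scipy 1.17.1. The populations were compared over 8 libraries and the stages in a fit of 11. CPM use the TMM factors of all 15 libraries. Relations used 100000 permutations, two-sided. Alternatives were other scalings, no filter, DESeq2 1.42.0, limma-voom (limma 3.58.1) with sample weights, other sets of libraries, a GC correction, a replicate block and leaving out each library of the groups compared. GC content came from the longest GENCODE M21 transcript, for 84.9% and 85.2% of genes tested. Each library's GC slope rests on 8174 genes whose mean log2 CPM exceeds 4. The scripts were tested on simulated data.

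Replicate numbers come from the titles. Same-numbered dopaminergic and non-dopaminergic food-trained libraries deviated together from their group means (r 0.116, 0.127, 0.262 and 0.242 over 8535 genes), each library closest to its own number, so the numbers may pair these samples. The main test between the populations was unpaired. The replicate block, an alternative, used the numbers, and with it 5 members passed instead of 6. The labels do not say that samples of a group are separate experiments beyond the pools of 2 mice.

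All 9 members are named. From the oligodendrocyte lists the rule names called genes, up to 4 per list, from other lists the 3 most abundant, and the 8 genes most like the members among those with a mean of at least 20 counts, with predicted genes counted only. The values of some further marker genes are not reported here. The members and lists were chosen with earlier results of these data known.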

Additional observations from a re-analysis of the deposited data

Results flagged for a closer look

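In groups of 4 libraries, the highest or lowest value was checked against the others by Dixon's criterion (a gap over 0.829 of the group's range). Of 27 groups with differing values, 2 were beyond it, both through food-trained dopaminergic replicate 3, and chance alone gives about 1 in 20. Cnp stood at 42.4 CPM in that library against 130 to 146 CPM in the other 3. Sox10 stood at 22.4 CPM in it against 0 to 1.2 CPM in the other 3. This library had the lowest total, 25813697 counts, and the part of depth in these values was not tested.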

How the results depend on the processing

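Between the populations, 4 to 8 members passed in every alternative run (4 to 7 of the 7 members other than Olig2 and Sox10), and no member changed direction. In 153 single-gene values 132 kept their side of the threshold, 14 lost it and 7 gained it. At maintenance against food training the count of 1 member rose to 3 with DESeq2 and fell to 0 with limma-voom, with only these stages fitted and with the term for the libraries of low GC slope; at abstinence against maintenance it fell to 0 with limma-voom and with that term. That term rests on non-dopaminergic replicate 2, since among dopaminergic libraries it coincides with maintenance. The cause of these changes was not tested.

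Signs changed for members that had not passed. At maintenance, limma-voom gave -0.35 for Olig2 and 0.86 for Sox10, the replicate block -0.14 for Olig2 and the GC slope term -0.88 for Mal. At abstinence against food training, limma-voom gave 1.79 for Sox10. At abstinence against maintenance, limma-voom gave 1.99 and the block 4.25 for Olig2, and the GC slope term 0.4 for Mal. Leaving out each library of the groups compared in turn gave ranges of -6.56 to 4.62 for Olig2 and -2.46 to 2.09 for Sox10 at maintenance. At abstinence against food training they were -0.55 to 0.07 for Mag, -0.19 to 0.14 for Mog, -0.0038 to 0.49 for Olig1 and -1.32 to 2.75 for Sox10, and against maintenance -0.02 to 0.65 for Cnp and -2.48 to 8.15 for Olig2. The median share of the non-dopaminergic level ran from 9.23% to 21.5% after food training and from 7.98% to 15.1% at abstinence, and r with the precursor genes was 0.02 with CPM by total counts.

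Between the populations the replicate block left 5 members past the threshold, and Olig1 was the only call it changed. Between stages the numbers did not pair the samples (r -0.351 to 0.109), and the block left the counts of members at 1, 0 and 1. Olig2 was filtered out where only maintenance and food training were fitted, so that setting has no value for it. Low counts limit Olig2 and Sox10, which had 0 counts in 6 and 3 of the 11 dopaminergic libraries.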
